A study of Xenopus laevis with 4 samples.

Results

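Chromosomes 2L and 2S of the frog Xenopus laevis carried 6985 of the 61137 regions that the authors list as bound by ETS2 in common to their ChIP libraries. The members were all regions of that list on either chromosome, 3812 on 2L and 3173 on 2S, and no measured value entered the choice. The data come from chromatin immunoprecipitation followed by sequencing (ChIP-seq) on whole embryos at stage 11.5, the middle of gastrulation, after injection of 750 pg of mRNA for ETS2 with a triple FLAG tag. There were 2 ChIP libraries, made with a FLAG antibody, and 2 input libraries without antibody, all from embryos that carried the tagged protein. The antibody recovers the tagged protein, so binding of the embryo's own untagged ETS2 was not measured, and embryos without the tag were not analysed here. Chromosomes are named as in the deposited lists, whose genome build the labels and headers leave unnamed.

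ETS2 belongs to the ETS family of transcription factors, which receive signals of the FGF and MAP kinase pathway. In the frog gastrula this pathway acts in the formation and patterning of the mesoderm. Xenopus laevis is an allotetraploid that keeps 2 related sets of chromosomes, called L and S, and 2L and 2S are the partners of one ancestral chromosome. Chromosome 2L also carries the sex-determining region of this species, with the female-determining gene DM-W. The RefSeq annotation of assembly v10.1 likewise lists xdm-w on 2L, beside cdk6.L, but the positions of that assembly could not be set against those of the files, so no ETS2 region was tied to it or to any other gene.

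Each ChIP library has its own list of peaks with a value per peak, read here as −log10 of a p or q value because the files do not name it. It was set by the authors, and it serves here to order peaks inside one list. Across the genome, library 1 had 69083 peaks and library 2 had 157105, and their read depth is unknown. The strength of a region is given as the percentile, within each library's list, of its highest overlapping peak, and as the mean of the percentiles of both libraries. The lists describe which positions were called in 2 libraries, and they give no test between chromosomes. Intervals are exact and at the 95% level, cover counting error only, and treat neighbouring regions as independent, which they are not.

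ETS2 regions were slightly denser on 2L than on 2S. The common list held 21.0 regions per Mb on 2L (interval 20.4 to 21.7) and 19.9 per Mb on 2S (19.2 to 20.6), over 181.2 and 159.8 Mb up to the last peak. The ratio of 2L to 2S was 1.06 (1.01 to 1.11), which placed pair 2 sixth among the 9 pairs. The other 8 pairs had ratios from 0.980 to 1.18, so the value of pair 2 lay inside their range.

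Each library alone gave a ratio close to that of the common list. In library 1, 2L had 4275 peaks (23.6 per Mb) and 2S had 3546 (22.2 per Mb), a ratio of 1.06. In library 2, 2L had 9989 peaks (55.1 per Mb) and 2S had 8378 (52.4 per Mb), a ratio of 1.05. Among common regions above the median strength of the genome the ratio was 1.02, and among those where a peak of each library covered at least 50% of the other it was 1.01. Without the first and last 5% of both chromosomes it was 1.04.

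Taken as a pair, chromosomes 2L and 2S were among the sparser chromosomes. Together they held 20.5 regions per Mb, sixth of 9 pairs, where the other pairs ranged from 19.5 to 27.2 with a median of 22.4. Of the 16 other chromosomes, 6 were sparser than 2L and 3 were sparser than 2S. The ETS2 regions covered 2.01 Mb, or 1.11%, of 2L and 1.67 Mb, or 1.05%, of 2S.

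**Figure D1:**
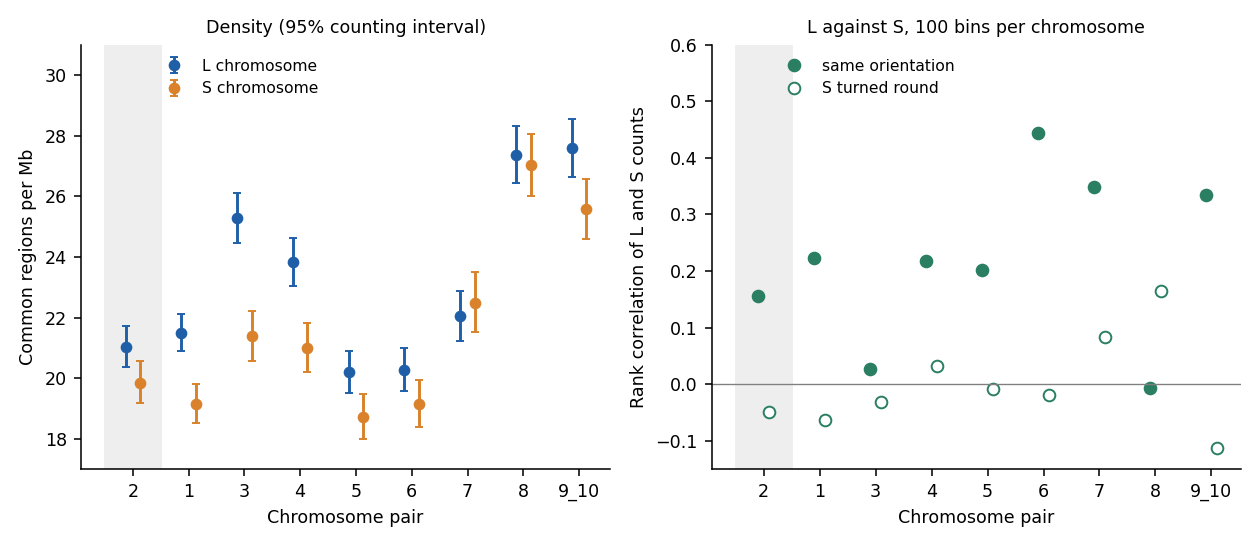
Left, common ETS2 regions per Mb on the L (blue) and S (orange) chromosome of each pair, with pair 2 shaded and bars for the 95% counting interval; the axis does not start at 0. Right, Spearman rank correlation of region counts in 100 bins between L and S, with S as numbered (filled) and turned round (open). Pair 2 had 21.0 regions per Mb on 2L and 19.9 on 2S, and correlations of 0.155 and −0.0486.

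Nearly every library 1 peak on the pair was found again in library 2. On 2L, 4165 library 1 peaks (97.4%, interval 96.9 to 97.9%) overlapped a library 2 peak, and on 2S, 3435 (96.9%, 96.2 to 97.4%), against 97.1% on all 18 chromosomes. In the other direction, 3823 library 2 peaks on 2L (38.3%, 37.3 to 39.2%) and 3179 on 2S (37.9%, 36.9 to 39.0%) overlapped a library 1 peak, against 38.8% on all 18 chromosomes. These shares lay near the background. Library 2 had a further 6166 peaks on 2L and 5199 on 2S without a partner, with median values of 6.43 on both, where those with a partner had 35.5 on 2L and 36.5 on 2S. Their counts in 100 bins followed those of the common regions, with rank correlations of 0.79 on 2L and 0.82 on 2S, given as descriptions because the bins share their chromosome and libraries. Library 1 had 110 peaks without a partner on 2L and 111 on 2S. Overlap was often only partial. A peak of each library covered at least 50% of the other in 2031 common regions of 2L (53.3%) and 1765 of 2S (55.6%). On the other 16 chromosomes this share was 54.0 to 57.4%. That of 2L was the lowest, but close to the 54.0% of 4L, and the difference was not tested.

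Regions of both chromosomes were of like width. The median was 456 bp on 2L (interval 448 to 463, interquartile range 352 to 622) and 463 bp on 2S (455 to 474, interquartile range 358 to 624). On both chromosomes the narrowest region was 139 bp. Regions over 1 kb numbered 245 on 2L (6.43%) and 165 on 2S (5.20%). The widest on 2L, at 75982384 to 75984969, measured 2586 bp and merged 5 peaks of library 1 under a single peak of library 2. Its values were moderate, 17.6 in library 1 and 34.5 in library 2. The widest on 2S, at 29152425 to 29154826, measured 2402 bp, held 1 peak of each library, and was the second strongest region of that chromosome, with values of 95.4 and 225.5.

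Wider regions were stronger on both partners. On 2L, median strength was 39.6 for the 545 regions under 300 bp, 63.0 for 2218 regions of 300 to under 600 bp, 81.0 for 804 regions of 600 to 1000 bp and 89.6 for the 245 over 1000 bp. The same classes on 2S had medians of 39.6, 64.4, 82.3 and 88.3. None of the regions under 300 bp, on either chromosome, was among the strongest 10% of the genome, while 93 of those over 1000 bp on 2L and 63 on 2S were. The rank correlation of width with strength was 0.60 on 2L and 0.59 on 2S, across regions of the same libraries, and 0.565 to 0.612 on the other 16 chromosomes. Width and value come from the same call of a peak and are not independent measures.

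Strength differed little between 2L and 2S. The median percentile in library 1 was 52.7 on 2L (interval 51.6 to 54.3) and 54.6 on 2S (53.2 to 56.5). In library 2 it was 80.2 on 2L (79.5 to 80.8) and 80.7 on 2S (80.1 to 81.5). The mean of both libraries had a median of 65.2 on 2L (63.8 to 66.3) and 66.6 on 2S (65.2 to 68.0), a difference of −1.41 percentile points. The intervals of 2L and 2S overlapped in each library and in the mean. The other 8 pairs had differences of L minus S from −1.84 to 1.40 points. Medians of the other 16 chromosomes ran only from 63.9 to 67.6, and 3 of them lay below that of 2L and 12 below that of 2S.

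The strongest 10% of all common regions, at a mean percentile of 92.8 or more, held 371 regions of 2L (9.73%, 8.81 to 10.7%) and 314 of 2S (9.90%, 8.88 to 11.0%). The share in the genome is 10% by definition, so neither chromosome stood apart. Strong regions of one library were mostly strong in the other. For this the top 10% was taken among the common regions by each library's percentile, and not among that library's full list of peaks. Of the 372 regions of 2L in the top 10% by library 1, 263 (70.7%) were also in the top 10% by library 2. On 2S 220 of 320 (68.8%) were. This share was not counted on the other chromosomes, so it is not shown to be particular to the pair. Across all regions the ranks of the libraries correlated at 0.76 on either chromosome, and at 0.747 to 0.796 on the other 16. Library 2 had the higher value in 3707 regions of 2L (97.2%) and 3087 of 2S (97.3%), and values of libraries of unknown depth are not comparable in size.

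Among the 10 strongest regions of 2L, library 1 values lay between 87.0 and 135.5, library 2 values between 196.3 and 274.2, and widths between 710 and 1527 bp. The first, at 136360802 to 136361700, reached 107.1 in library 1 and 274.2 in library 2, the highest library 2 value of the pair. The second lay at 139919127 to 139920189 (103.0 and 253.8). It was followed by regions at 5821579 to 5822925 (107.6 and 225.2) and at 149989917 to 149990626 (99.7 and 254.8). The seventh, at 30954815 to 30955830, had the highest library 1 value of 2L, 135.5, beside 202.6 in library 2. Strength at the top of 2L thus did not follow one library alone, since the highest region of each list was a different one.

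Among the 10 strongest regions of 2S, library 1 values lay between 83.4 and 140.7, library 2 values between 181.9 and 245.0, and widths between 535 and 2402 bp. The first lay at 86550262 to 86551067, with values of 140.7 and 225.6, the highest library 1 value of the pair. After the wide region at 29152425 came those at 118065224 to 118065873 (89.2 and 229.8) and at 70661776 to 70662596 (87.5 and 245.0). On both chromosomes 6 of the 10 had another common region within 5 kb, and 7 of the 10 lay beyond 50% of the length. Among all regions, 1499 of 3812 on 2L and 1271 of 3173 on 2S had another within 5 kb. Regions of all strengths were spread over the whole length. Parts of 20% of the length had 19.4 to 22.3 per Mb on 2L and 18.2 to 21.6 on 2S. With 10 regions on each chromosome, neither count was tested against the share of all regions. The strongest region of 2S had its nearest neighbour 34.5 kb away, and the eighth strongest had its own 43.6 kb away.

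ETS2 regions were spaced slightly wider on both partners than on most other chromosomes. The median distance from one region to the next was 19.4 kb on 2L (interval 18.2 to 20.4) and 21.0 kb on 2S (19.6 to 22.6). The 16 other chromosomes had medians from 13.5 to 23.1 kb, of which 10 were shorter than that of 2L and 13 shorter than that of 2S. Of 3811 neighbouring pairs on 2L, 931 (24.4%, 23.1 to 25.8%) were less than 5 kb apart, and of 3172 on 2S, 780 (24.6%, 23.1 to 26.1%) were. The share on all 18 chromosomes was 25.6%. Pair 2, with 24.5%, was seventh of 9, where the other pairs ranged from 22.96 to 28.97%, and the difference was not tested. It depended on the list, with 39.2% on 2L and 38.5% on 2S in library 2 alone, and 15.95% on 2L and 16.4% on 2S among common regions above the median strength.

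Spacing was uneven. On 2L the middle part of the distances ran from 5.13 to 55.5 kb (interquartile range), and on 2S from 5.15 to 60.6 kb. Stretches of 500 kb or more without a common region numbered 11 on 2L and 13 on 2S, against 3 to 17 on the other 16 chromosomes, which differ in length. The longest on 2L ran over 912.5 kb from 48380835 to 49293372, and was followed by 722.3 kb from 106058472 and 716.4 kb from 97156103. The longest on 2S ran over 837.1 kb from 147849003 to 148686119, and was followed by 740.4 kb from 72662335 and 677.4 kb from 26286154. None of these 6 stretches was empty in library 2. The longest on either chromosome held 21 library 2 peaks without a partner, with values of up to 19.6 on 2L and 37.8 on 2S, and the only library 1 peak in the 6 lay in that of 2S. On the other 16 chromosomes the longest stretch measured 588.1 to 954.4 kb. It was shorter than that of 2L on 14 of them and shorter than that of 2S on 8.

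Regions with a close neighbour were more often strong than lone ones. Of the 1499 regions of 2L within 5 kb of another, 192 (12.8%, interval 11.2 to 14.6%) were in the strongest 10% of the genome, and of the 1271 on 2S, 184 (14.5%, 12.6 to 16.5%) were. The share was lower with each wider class of distance, and reached 3.73% (1.22 to 8.49%) for the 134 regions of 2L that lay 100 kb or more from any other and 3.54% (0.973 to 8.82%) for the 113 on 2S. Median strength was 66.6 for close regions and 56.3 for lone regions of 2L, and 69.3 and 60.6 for those of 2S. On 2S the classes between them had 64.0 (5 to 20 kb) and 66.2 (20 to 100 kb) and so were not in order. The difference in median lay mostly in library 1, with percentiles of 55.4 and 40.6 on 2L and 57.9 and 45.9 on 2S. In library 2 they were 80.1 and 77.7 on 2L and 81.6 and 80.0 on 2S. Close regions were also wider, with medians of 475 bp on 2L and 488 bp on 2S, where lone regions had 401 and 407 bp. The other 16 chromosomes had shares of 12.8% and 3.88% for the closest and the farthest class, so the pattern was not confined to pair 2. The part of width in it was not tested.

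**Figure D2:**
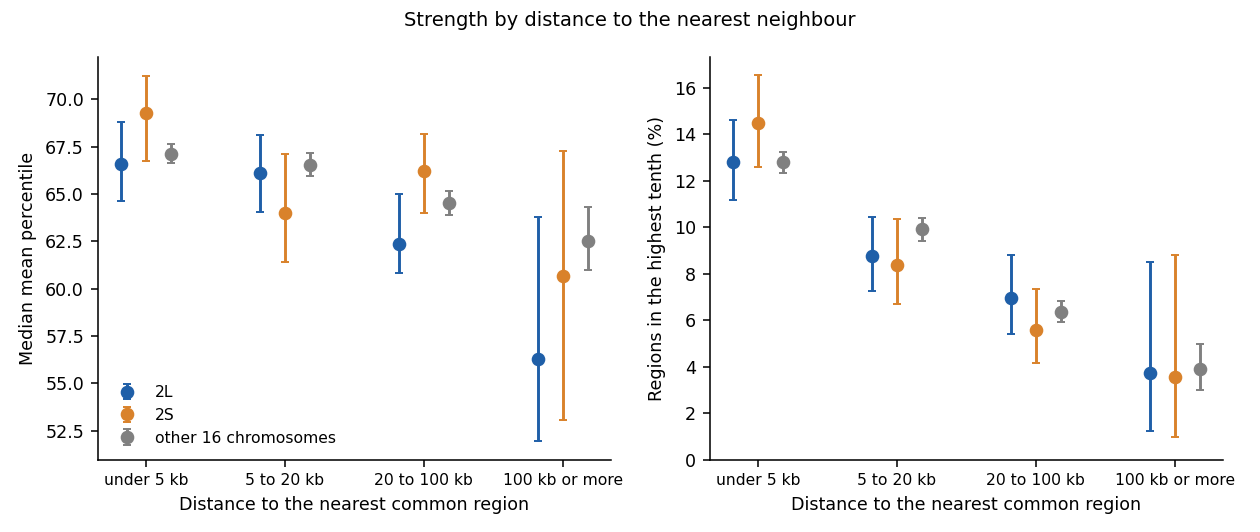
Median mean percentile (left) and share of regions in the strongest 10% of the genome (right) by distance to the nearest common region, for 2L (blue), 2S (orange) and the other 16 chromosomes (grey), with 95% intervals. The share in the strongest 10% was 12.8% on 2L and 14.5% on 2S for regions within 5 kb of another, and 3.73% and 3.54% for those 100 kb or more away.

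Dense stretches were fewer on pair 2 than on most pairs, although 2S held the fullest of the fixed 100-kb windows of the 18 chromosomes. Windows of 100 kb with 10 or more common regions numbered 26 of 1813 on 2L (1.43%, interval 0.939 to 2.09%) and 18 of 1599 on 2S (1.13%, 0.668 to 1.77%), against 1.83% of windows on all 18 chromosomes. These windows held 337 regions of 2L (8.84%) and 230 of 2S (7.25%). On the other chromosomes this share of regions ran from 5.04% on 5S to 14.8% on 8S, so those of 2L and 2S lay inside that range. With both chromosomes combined, pair 2 was eighth of 9 pairs in the share of such windows. Windows without any common region made up 26.9% of 2L and 28.6% of 2S, against 26.4% on all 18. When only regions with reciprocal overlap of 50% were counted, 3 windows of 2L and 4 of 2S still reached 10.

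The densest window of 2L, at 148400001 to 148500000, held 25 regions, and that of 2S, at 128800001 to 128900000, held 31. No window of the other 16 chromosomes held more than 27. The window before that of 2L had 14 regions and the window after it 7, where the windows on either side of that of 2S had 2 and 7. The dense stretch of 2L thus crossed a window border, and it is best read as a run of regions each less than 5 kb from the next. This run held 35 regions over 81.3 kb, from 148370543 to 148451806. That is more than the 31 of the fullest fixed window, so the rank of the 2S window depends on where window borders fall. On 2S the 31 regions spanned 85.5 kb, from 128811052 to 128896600, in runs of 13 and 18 regions with a gap of 12.4 kb between them.

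The stretches were bounded differently, as a single run on 2L and as the regions of a window on 2S. By the rule for runs alone, the longest held 35 regions over 81.3 kb on 2L and 18 over 42.6 kb on 2S. Within the stretches as bounded, regions had a median width of 644 bp on 2L and 521 bp on 2S, and a median strength of 68.9 and 57.0. The median distance between regions was 1.61 kb on 2L and 1.76 kb on 2S, and the regions covered 28.4% and 22.2% of the stretch. Both were preceded by about 30 kb without a common region, 29.1 kb on 2L and 30.1 kb on 2S. The lowest, median and highest values on 2L were 3.00, 9.26 and 60.8 in library 1 and 7.13, 29.5 and 167.7 in library 2. On 2S they were 1.55, 7.47 and 70.2 in library 1 and 2.80, 34.3 and 207.1 in library 2. Each stretch thus held weak regions beside strong ones, with 8 of 35 regions on 2L and 6 of 31 on 2S in the strongest 10%. The strongest of 2L lay at 148379739 to 148381086 (60.8 in library 1 and 150.9 in library 2), 9.87 kb into the stretch. The strongest of 2S lay at 128821329 to 128821910 (70.2 and 207.1), 10.6 kb into it. The second strongest lay 23.5 kb into the stretch on 2L and 2.34 kb into that on 2S. Cut into 4 equal lengths, the 2L stretch held 9, 8, 10 and 8 regions and the 2S stretch 9, 4, 9 and 9. Whether they hold the same genes was not tested.

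**Figure D3:**
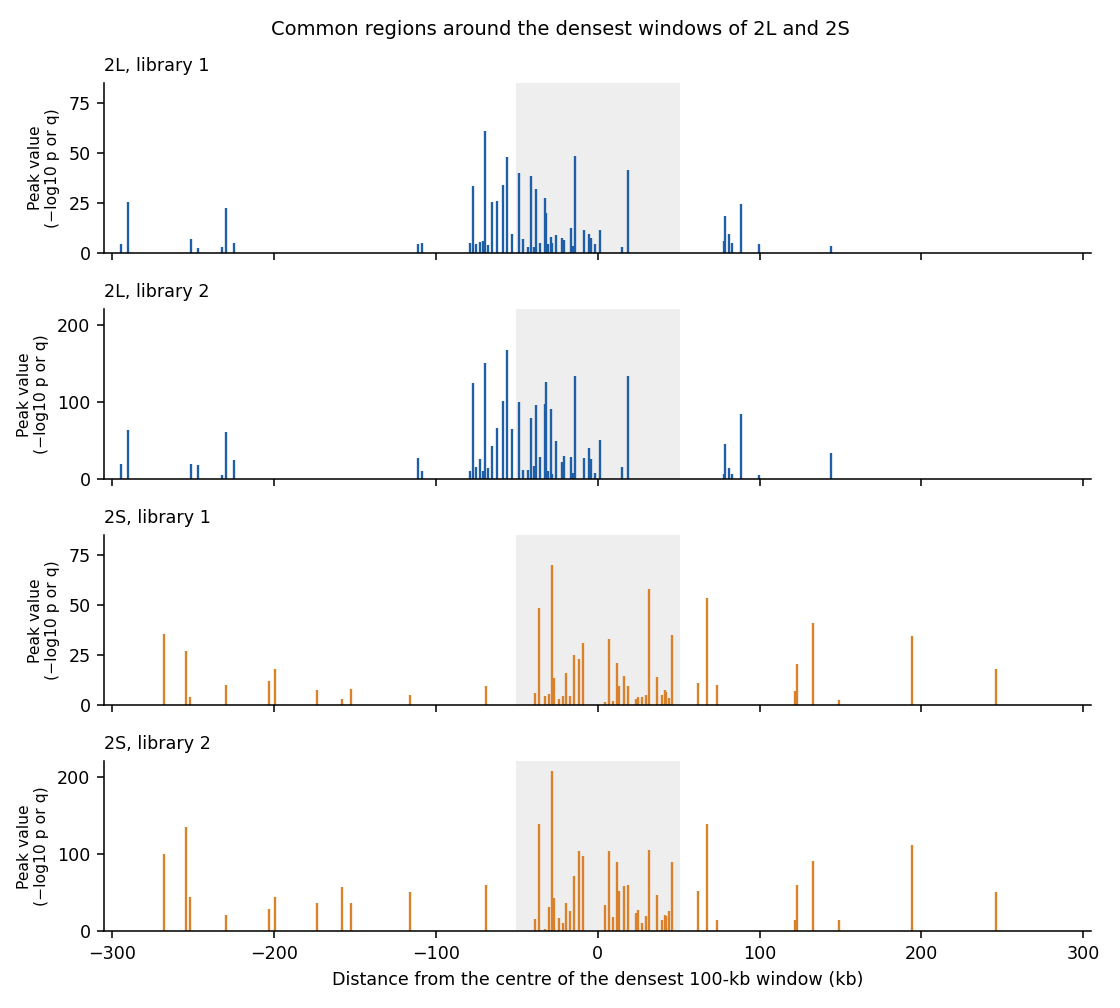
Peak values (−log10 p or q, as deposited) of common ETS2 regions within 300 kb of the centre of the densest 100-kb window (shaded) of 2L (blue, above) and 2S (orange, below), in library 1 and library 2. The run of 35 regions on 2L and the 31 regions on 2S reached values of 60.8 and 70.2 in library 1 and 167.7 and 207.1 in library 2; the scales of the libraries differ.

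Other dense stretches of 2L were of unequal strength. The window at 76000001 to 76100000 held 20 regions with a median strength of 77.9, of which 6 were in the strongest 10%, and its regions were broad, with a median width of 694 bp. Its strongest region, at 76004084 to 76004708, reached 72.1 in library 1 and 151.6 in library 2. The windows at 84200001 (18 regions) and 84400001 (15 regions) had medians of 59.4 and 57.5 and 1 region each in the strongest 10%, at 84284085 (49.0 and 128.0) and at 84427013 (37.1 and 117.4). A window at 57900001, with 15 regions, had a median strength of 67.2 and 4 such regions, the strongest at 57950188 (47.6 and 113.4). At 124700001, 15 regions had a median strength of 91.1, and 7 of them were in the strongest 10%. That window held the eighth strongest region of 2L, at 124728341 to 124729286, with values of 87.0 and 225.8.

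Behind its densest window, 2S had a window of 17 regions at 70600001 to 70700000, with a median strength of 67.8 and the fourth strongest region of the chromosome. The window at 62900001 held 15 regions with a median of 91.4, the strongest at 62968911 (67.4 in library 1 and 167.5 in library 2). Windows at 23100001, 28800001 and 138300001 held 13 regions each, with medians of 86.2, 61.3 and 94.5. Their strongest regions lay at 23138513 (70.1 and 192.0), 28835718 (60.2 and 91.0) and 138366474 (42.5 and 170.2). In the window at 138300001 9 of 13 regions (69.2%) were in the strongest 10%. Across all dense windows median strength ran from 47.9 to 91.1 on 2L and from 48.2 to 94.5 on 2S, and 3 windows on each chromosome had no region in the strongest 10%. A high count of regions thus did not go with one level of strength.

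Runs of regions less than 5 kb from the next were mostly short. On 2L, 568 runs held 2 or more regions, 32 held 5 or more and 4 held 10 or more. On 2S there were 491, 22 and 4. Runs of 5 or more took in 232 regions of 2L (6.09%) and 163 of 2S (5.14%). Runs were not counted on the other chromosomes, so these shares have no background. The second longest run of 2L had 14 regions over 29.0 kb from 84198387 and none in the strongest 10%. That of 2S had 14 regions over 29.9 kb from 63981990, of which 3 were in the strongest 10%.

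Density varied along each chromosome. In 10 parts of equal length, 2L ranged between 16.2 regions per Mb in the third and 27.4 in the ninth, and 2S between 13.5 in the first and 26.2 in the fourth. The 16 other chromosomes as wholes had 18.7 to 27.6. Whole chromosomes average over longer stretches, so these ranges are of unlike units, and parts of the other chromosomes were not counted. Median strength by part ran from 62.1 to 67.7 on 2L and from 63.3 to 70.3 on 2S. The share in the strongest 10% of the genome ran from 6.67 to 11.3% on 2L, and on 2S from 5.51% in the third part to 13.9% in the last.

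The outer ends of the partners differed at the start. The first 5% of 2L held 214 regions (23.6 per Mb) and the first 5% of 2S held 125 (15.6 per Mb), the lowest of any chromosome start. On the other 16 chromosomes the first 5% had 17.2 to 49.9 per Mb, with a median of 33.7. In the outermost 1 Mb there were 37 regions on 2L and 8 on 2S. The last 5% had 21.6 regions per Mb on 2L and 19.0 on 2S. The last 1 Mb of 2L held 43 regions, and that of 2S held 29. The strongest of them on 2L lay at 180874856 to 180875586, where library 1 gave 96.3 and library 2 gave 184.1. How much sequence lies beyond the last peak is unknown.

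L and S positions were compared in both orientations. Counts in 100 equal bins correlated at 0.155 (Spearman) with 2S as numbered and at −0.0486 with 2S turned round, a difference of 0.204. The bins share libraries and chromosome, and the values are descriptions without a p. Same-orientation correlations of the other 8 pairs ran from −0.00626 to 0.445 with a median of 0.221, so pair 2, seventh of 9, was among the weaker. A shift by 2 bins, with 2L ahead, gave the highest same-orientation value, 0.242. Over all shifts of up to 5 bins, values ran from −0.0315 to 0.242 in the same orientation and from −0.0785 to 0.139 in the reversed one. The reversed value was the higher at 3 of the 11 settings, with 2L behind by 3 or by 1 bins and ahead by 5. In bins of 1 Mb from the start, without scaling for length, the same-orientation value was −0.0824.

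The fullest bins showed both shared and unshared places. The bin from 81 to 82% of 2L held 93 regions, the most on that chromosome, and the same bin of 2S held 66. The bin from 75 to 76% held 71 regions on 2L and 62 on 2S, each among the 5 fullest of its chromosome. With 2S turned round, these 2 bins of 2L faced 60 and 20 regions, so the first hardly told the orientations apart. In contrast, the fullest bin of 2S, from 39 to 40% with 80 regions, faced 28 on 2L. The first bin of 2L, with 71 regions, faced 12 on 2S as numbered and 40 with 2S turned round.

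**Figure D4:**
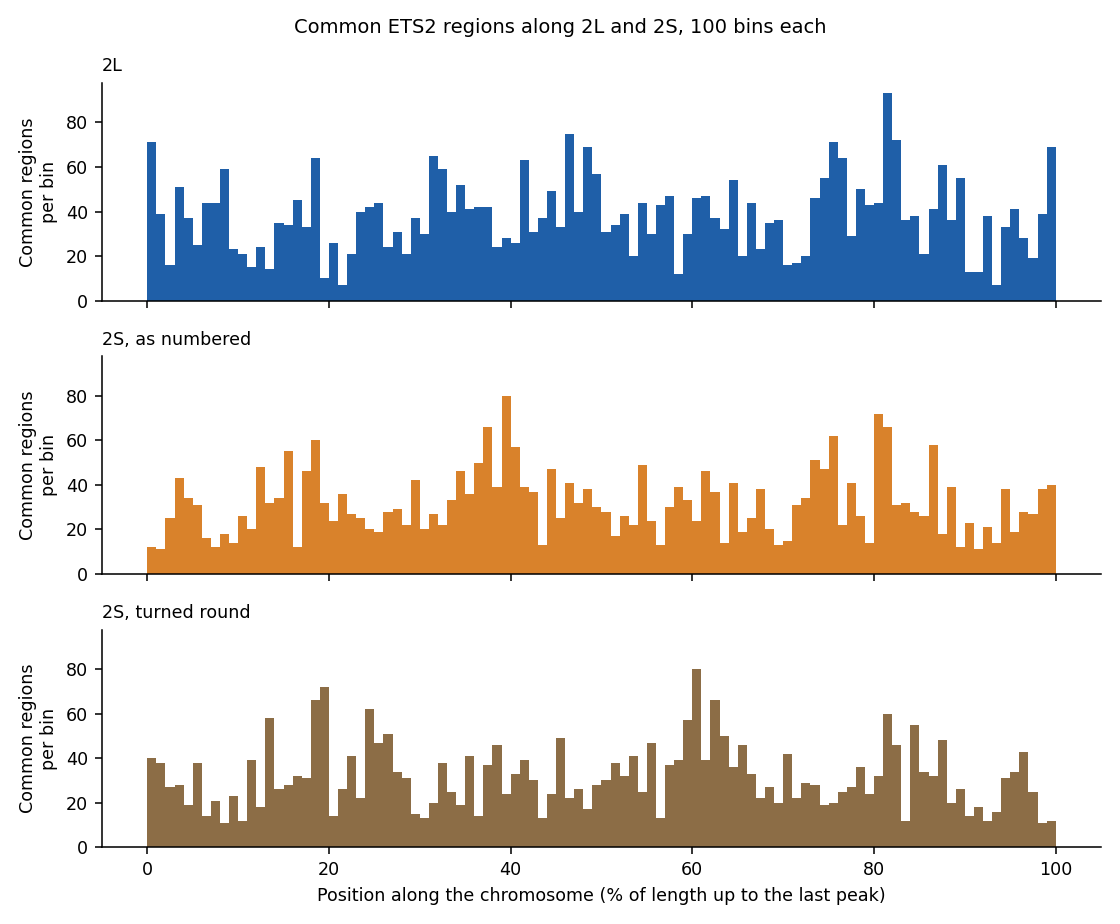
Common ETS2 regions in 100 bins of equal share of the length up to the last peak, on 2L, on 2S as numbered and on 2S turned round. Counts ran from 7 to 93 on 2L and from 11 to 80 on 2S. The bin from 81 to 82% of 2L, with 93 regions, faced 66 on 2S as numbered and 60 with 2S turned round.

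In 5 parts of 20% of the length each, the later part of the chromosomes was more alike than the earlier part. In the fourth and the fifth parts the same-orientation correlations over 20 bins were 0.427 and 0.417, and with 2S turned round within the part they were 0.101 and 0.00754. In the first part the order of the values was the other way, −0.162 in the same orientation and 0.178 turned round. The second part gave −0.0400 and −0.386, and the third gave 0.231 and −0.597. Densities on 2L and 2S were 19.4 and 18.2 per Mb in the first part and 22.0 and 20.1 in the last, and 2S was denser only in the second, with 19.8 per Mb on 2L and 21.6 on 2S. Each value rests on 20 bins and on parts chosen after the profiles had been seen.

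**Figure D5:**
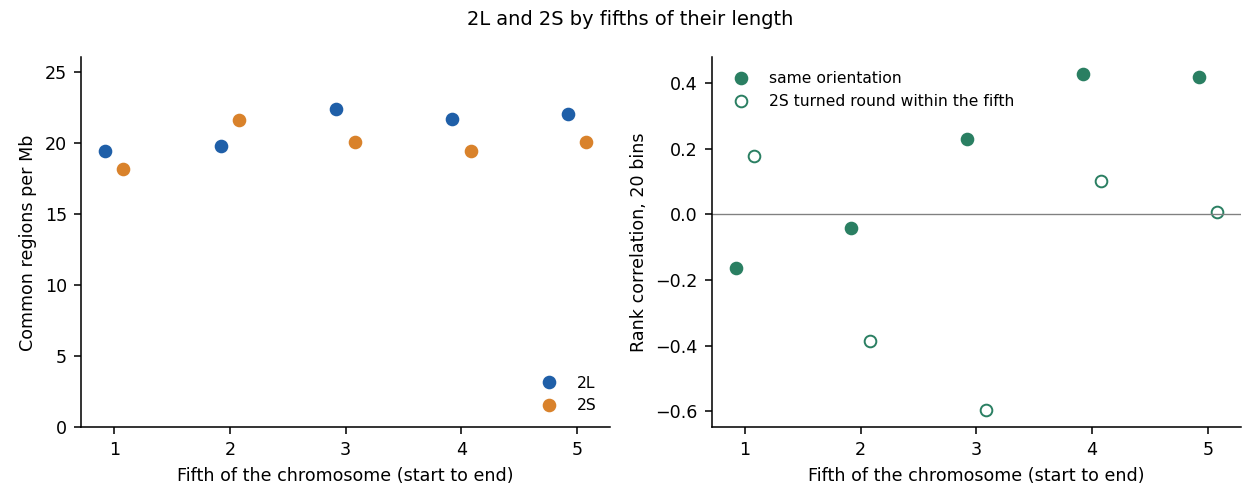
Left, common regions per Mb in each part of 20% of the length of 2L (blue) and 2S (orange). Right, rank correlation of 2L and 2S counts over the 20 bins of each part, with 2S as numbered (filled) and turned round within the part (open). The correlation was 0.427 and 0.417 in the fourth and the fifth parts in the same orientation, and −0.162 in the first.

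Gene order gives the setting for these positions. Among 1014 genes that RefSeq assembly v10.1 names on both 2L and 2S, 63.2% of neighbours on 2L also follow each other on 2S in the same direction, and 32.6% in the opposite one. The opposite direction held for 2 blocks, from vps28 to nr0b1, with 173 genes at the start of 2L, and from adprs to adora1, with 144 genes. The blocks from arx to cdkn1a (83 genes), tekt2 to col9a2 (45), luzp1 to bbx (106) and trmt10c to mtnr1b (397) run the same way on both. Over all 1014 genes the rank correlation of order was 0.984. In that assembly the chromosomes as wholes thus run the same way. The opposite direction lay mostly in the 2 blocks, which hold 31.3% of the genes. Some genes fall in none of the blocks named here. That assembly may differ from the build of the files, so these blocks were not laid over the ETS2 regions.

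Dense windows had partners in both orientations. Of the 26 dense windows of 2L, 14 (53.8%) had a dense window of 2S within 2% of the same relative position, and 16 (61.5%) had one with 2S turned round. Of the 18 dense windows of 2S, 14 (77.8%) had one in the same orientation and 13 (72.2%) with the chromosome turned round. At this tolerance the orientation with more matches was the reversed one for 2L and the same one for 2S. Within 1% the same orientation had more for both, with 11 against 9 for 2L and 12 against 8 for 2S. Within 5% it again had more, with 24 against 23 for 2L and 18 against 14 for 2S. No test was made of these counts. The share of all windows that lie as near to a dense window of the partner was not counted, so they do not show that dense windows match more often than others. The matches in the same orientation included the densest windows of both chromosomes, at 81.9% of 2L and 80.6% of 2S. They also included the window at 124700001 on 2L with that at 107000001 on 2S (15 and 12 regions), at 68.8 and 67.0% of the length. The window at 158500001 on 2L (12 regions) matched that at 138300001 on 2S (13 regions), at 87.5 and 86.6%. Each of these 2L windows also had a dense window of 2S within 2% when 2S was turned round. For the windows at 148400001, 124700001 and 158500001 of 2L, these lay at 28800001, 46900001 and 23100001 of 2S. These examples are thus not particular to the same orientation. In the reversed orientation the window at 700001 on 2L (13 regions), at 0.414% of the length, matched that at 158800001 on 2S (12 regions), at 99.4%.

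The strongest regions were compared in the same way. Of the 10 strongest of each chromosome, 6 of 2L and 5 of 2S had a counterpart within 2% in the same orientation, and 2 of 2L and 3 of 2S in the reversed one. The closest lay at 18.2% of both chromosomes, at 32992260 on 2L (95.4 in library 1, 196.4 in library 2) and at 29152425 on 2S (95.4 and 225.5). Between 75 and 78% the first, second and ninth of 2L and the fifth and seventh of 2S lay near one another. Some regions were matched more than once, since the 6 and 5 regions formed 9 pairs in the same orientation. With 10 regions on each chromosome these counts are a description of the lists. The share of other regions that would have a counterpart as near was not counted.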

How the data were processed

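Per the submitters' processing notes, Bowtie2 2.2.3 and MACS2 were used; settings are not stated. The authors deposited 1 peak list per ChIP library, each tied by the labels to 1 input, with coordinates and a value per peak that was read from its range as −log10 of a p or q value, and a list of common regions without values. All 61137 common regions had the outermost bounds of the peaks inside them. Positions are printed counting from 1. Lengths run to the last peak of any list. Peaks overlapping a region by at least 1 bp gave its strength, as percentile of the highest value in each list, averaged over both libraries. Windows of 100 kb took regions by midpoint. Intervals are Clopper-Pearson, exact Poisson or order-statistic, and the ratio of densities uses the conditional binomial. Regions named one by one are the 10 strongest and the widest of each chromosome, the 5 densest windows with ties, the 3 longest empty stretches, and matched windows. The members, lists and measures were chosen with earlier results of these data known. Nothing says that the libraries came from separate batches of embryos. Procedures were tested on simulated data. Since the build is not known, no gene was assigned and no sequence is shown. Python 3.11.15, numpy 2.4.6, scipy 1.17.1, pandas 2.3.3 and matplotlib 3.10.9 were used.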

Additional observations from a re-analysis of the deposited data

How the results depend on the processing

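The higher density on 2L (ratio 1.06) kept its direction in all 7 alternatives, from 1.01 to 1.06. It was nearest to 1 with reciprocal overlap (1.01) and above the median strength (1.02), for which no interval is given. The differences in median width (−7 bp) and median strength (−1.41 points) kept their direction in all 4 alternatives each. Alternatives by ends, dense windows, lone regions, parts of the length and shifts were added after the data were seen. The share of neighbours under 5 kb (24.4% on 2L and 24.6% on 2S) was 13.4% and 14.0% at 2 kb and 51.0% and 48.7% at 20 kb, as other limits must give. It was 30.6 to 39.2% on 2L and 29.9 to 38.5% on 2S in single libraries, and 15.95% and 16.4% above the median strength, where fewer regions are left. Windows with 10 or more regions made up 0.165% of 2L and 0.250% of 2S with reciprocal overlap, which also leaves fewer regions. The same-orientation minus reversed correlation, 0.204, was 0.158 to 0.185 in single libraries and 0.258 with 50 bins. It was 0.0907 with 200 bins, 0.0571 in 1-Mb bins and 0.0901 above the median strength. In 5 parts of the length it was −0.340, 0.346, 0.828, 0.326 and 0.410. With shifts of −4 to −1 bins it was 0.0115, −0.0717, 0.0581 and −0.155, and with 3 and 5 bins 0.0649 and −0.0229. With shifts of −5, 1, 2 and 4 bins it was 0.164, 0.205, 0.281 and 0.145. The cause was not tested. No paired analysis was possible because each input enters only through the peak list of its own ChIP library, with no values of its own. Unknown depth limits what peaks of library 2 alone show.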
